A study of Mus musculus with 6 samples.

Results

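Immediate early genes were read gene by gene in the lungs of 3 saline-treated and 3 rhTM-treated mice after LPS. The set was a named list of 36 genes of the AP-1, EGR, NR4A and KLF transcription factor families, the dual-specificity phosphatases and other genes of the same response class, out of 22815 genes with a named probe. For each gene the brightest probe over the 6 arrays was used. In all 6 lungs that probe exceeded background clearly for 35 of the 36 genes. The exception was Egr4, an EGR factor studied mostly in brain, whose probe was not well above background in any lung and was not tested. No array held a saturated spot for any of the 35 genes.

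All 6 mice were male C57BL6 animals of 10 weeks, starved for 16 h and then given 20 mg/kg of LPS intraperitoneally. LPS, the bacterial endotoxin lipopolysaccharide, was used to produce an endotoxaemia model of acute respiratory distress syndrome. Saline, or recombinant human thrombomodulin (rhTM), the soluble form of an endothelial anticoagulant protein, was injected 3 h and 24 h after LPS. Lungs were taken at 30 h, and each mouse had its own 1-colour Agilent array. Mice without LPS, and lungs at other times, were not among these arrays, so the values describe treatment within endotoxaemia and not the response to LPS. For the RNA, a simplyRNA kit is named in the methods but an RNeasy kit in the sample labels, and the control injection is called saline for the arrays and PBS in the general animal methods.

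Immediate early genes are switched on within minutes of a stimulus without new protein synthesis, because their promoters are held ready by factors that MAP kinases, calcium or cAMP activate directly. Serum response factor with its ternary complex partners, and CREB, are the best known of these. Most of the products are short-lived transcription factors or feedback inhibitors, and in lung they respond to endotoxin, stretch, shear stress and also to the handling of tissue.

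Promoter sequences were searched for the sites of factors known to act on such genes, and no single site was found in most of them. In the RefSeq promoter table of assembly GRCm38.p6, 29 of the 36 genes had an entry. Fosl1, Egr1, Egr3, Ier2, Klf10, Myc and Arc were not in it. The 250 bases before the start were searched on both strands. Only fixed letter patterns were searched for, so variants of a site and more distant sites were not counted. A CArG box, the site of serum response factor, lay in 4 of the 29 windows (13.8%), those of Egr2, Dusp5, Zfp36 and Srf, against 1.62% of all 27025 genes of the table. The cAMP response element TGACGTCA lay in 3 (10.3%), those of Dusp1, Btg2 and Maff, against 1.77%. GCGNGGGCG, the EGR site, lay in 12 (41.4%) against 5.33%, and its letters are nearly all G and C. The AP-1 site TGANTCA lay in 1 (3.45%), that of Csrnp1, against 7.82%, and the TATA box TATAAA in 5 (17.2%), those of Fos, Nr4a2, Srf, Gadd45b and Gadd45g, against 14.3%. The table holds genes of all kinds, non-coding ones included, so these shares are a description of letters and not of binding.

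The windows of Egr2, Zfp36, Srf and Dusp1 are printed because they hold letters of the sites named above for serum response factor or CREB, and that of Fos because its values come first below. The capitals mark those sites, and in Fos the TATA box, a core promoter element. They run 5′ to 3′ on the strand of the gene. The CArG box lies 72 to 63 bases before the start of Egr2, 58 to 49 before that of Zfp36, and 82 to 73 and 62 to 53 before that of Srf. Egr2 has 5 windows in the table, of which 4 hold the box, and the first of these is shown. The cAMP response element lies 143 to 136 bases before the start of Dusp1, and the TATA box 33 to 28 before that of Fos.
Egr2, chr10:67537316-67537565, plus strand: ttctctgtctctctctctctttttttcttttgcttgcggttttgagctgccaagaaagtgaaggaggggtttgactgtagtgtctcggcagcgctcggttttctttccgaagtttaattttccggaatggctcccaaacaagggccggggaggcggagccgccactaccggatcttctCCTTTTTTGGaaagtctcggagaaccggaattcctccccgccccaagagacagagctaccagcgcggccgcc
Zfp36, chr7:28379229-28379478, minus strand: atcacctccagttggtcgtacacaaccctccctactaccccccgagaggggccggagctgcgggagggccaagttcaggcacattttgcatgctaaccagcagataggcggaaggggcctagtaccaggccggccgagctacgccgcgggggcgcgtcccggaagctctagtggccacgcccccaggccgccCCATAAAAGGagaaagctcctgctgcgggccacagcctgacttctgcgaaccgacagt
Srf, chr17:46556163-46556412, minus strand: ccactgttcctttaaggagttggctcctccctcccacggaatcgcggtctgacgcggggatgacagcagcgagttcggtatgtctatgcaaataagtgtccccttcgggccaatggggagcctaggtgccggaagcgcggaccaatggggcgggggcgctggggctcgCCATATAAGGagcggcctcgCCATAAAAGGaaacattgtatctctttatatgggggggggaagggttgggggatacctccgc
Dusp1, chr17:26508473-26508722, minus strand: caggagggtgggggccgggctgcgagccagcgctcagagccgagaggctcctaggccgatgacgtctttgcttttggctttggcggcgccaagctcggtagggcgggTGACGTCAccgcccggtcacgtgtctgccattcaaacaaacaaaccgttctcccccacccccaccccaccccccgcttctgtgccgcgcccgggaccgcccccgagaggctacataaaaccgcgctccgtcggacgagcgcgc
Fos, chr12:85473640-85473889, plus strand: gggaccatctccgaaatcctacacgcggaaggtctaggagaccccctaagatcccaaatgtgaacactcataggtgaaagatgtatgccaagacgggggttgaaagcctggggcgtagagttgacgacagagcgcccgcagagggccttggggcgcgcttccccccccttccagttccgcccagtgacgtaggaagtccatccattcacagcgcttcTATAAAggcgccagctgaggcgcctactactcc

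Assignment of the arrays has to be stated before any value. In the processed table that the authors deposited beside the scanner output, the columns of saline 1 and rhTM 2 are exchanged relative to the scanner files, with a match at 99.9% of probes to the other mouse. Nothing in the labels settles which is right. Values below follow the scanner files, and log2 fold changes by the table are given beside them for the genes described in every mouse. The arrays came from 2 slides, with saline 1 and rhTM 3 on slide 2 and the other four on slide 1, and the spike-in slope of saline 1 was 0.826 against 1.07 to 1.09 elsewhere. rhTM 1 was the array least like the others, with correlations of log2 signal across genes of 0.979 to 0.988. Of the lung markers, all 12 of endothelium, all 8 of AT2 cells, all 8 of airway cells and 6 of 7 of AT1 cells were bright enough to be tested.

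No immediate early gene differed between the groups past the threshold. At a Benjamini-Hochberg adjusted p under 0.05 by limma, 0 of the 35 genes passed, against 0% of all 16361 genes tested, and the adjusted p was 0.9999 for every one of the 35. At an unadjusted p under 0.05 it was also 0 of 35, against 1.86% of all genes, and the lowest unadjusted limma p was 0.0819, for Egr2. The mean log2 signal, on which all counts of higher and lower genes here rest, was higher in rhTM-treated mice for 25 of the 35 (71.4%) and lower for 10, with a median log2 fold change of 0.06. Over all genes 50.7% were higher and the median was 0.0026. With quantile normalization 20 of the 35 were higher and the median was 0.03, against 46.7% and -0.013 over all genes. RNA came from whole lung, in which fewer cells of a type and less RNA per cell cannot be told apart.

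**Figure D1:**
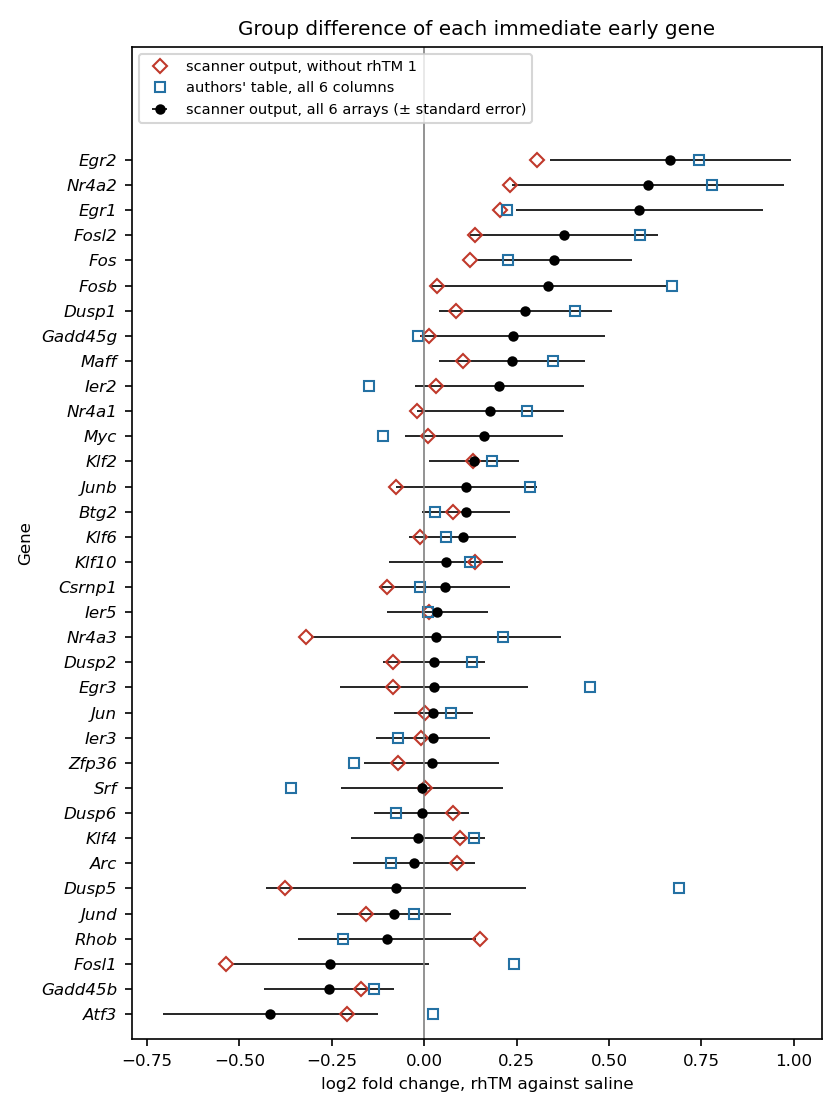
Log2 fold change of rhTM-treated against saline-treated mice (x axis) for the 35 genes tested (y axis), with all 6 arrays by the scanner output as black points with standard errors, without rhTM 1 as open diamonds, and by the authors' table as open squares. Black points run from -0.42 for Atf3 to 0.67 for Egr2, and without rhTM 1 the values lie between -0.54 and 0.30.

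Among the 6 lungs, rhTM 1 had the largest median deviation of the 35 genes from their means over all lungs. It was 0.28 on the log2 scale, against 0.011 over all genes. rhTM 1 was the highest of the 6 arrays for 21 of the 35 genes (60%), against 29.8% of all genes, and the lowest for 5, against 26.6%. Its signal was more than 1.5-fold above the median of the other 5 arrays for 11 of the 35 genes (31.4%), against 7.35% of all genes. These 11 were Fos, Fosb, Fosl1, Fosl2, Egr1, Egr2, Nr4a2, Nr4a3, Dusp1, Dusp5 and Gadd45g. It was below that median by as much for 2 (5.71%), Atf3 and Rhob, against 8.31% of all genes. Without rhTM 1, 21 of 35 genes were higher in rhTM-treated mice, against 50.1% of all genes, and the median log2 fold change was 0.01. At the other end, saline 3 was the lowest array for 12 of the 35 genes (34.3%), against 10.1% of all genes, and the highest for 0, with a median deviation of -0.17.

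**Figure D2:**
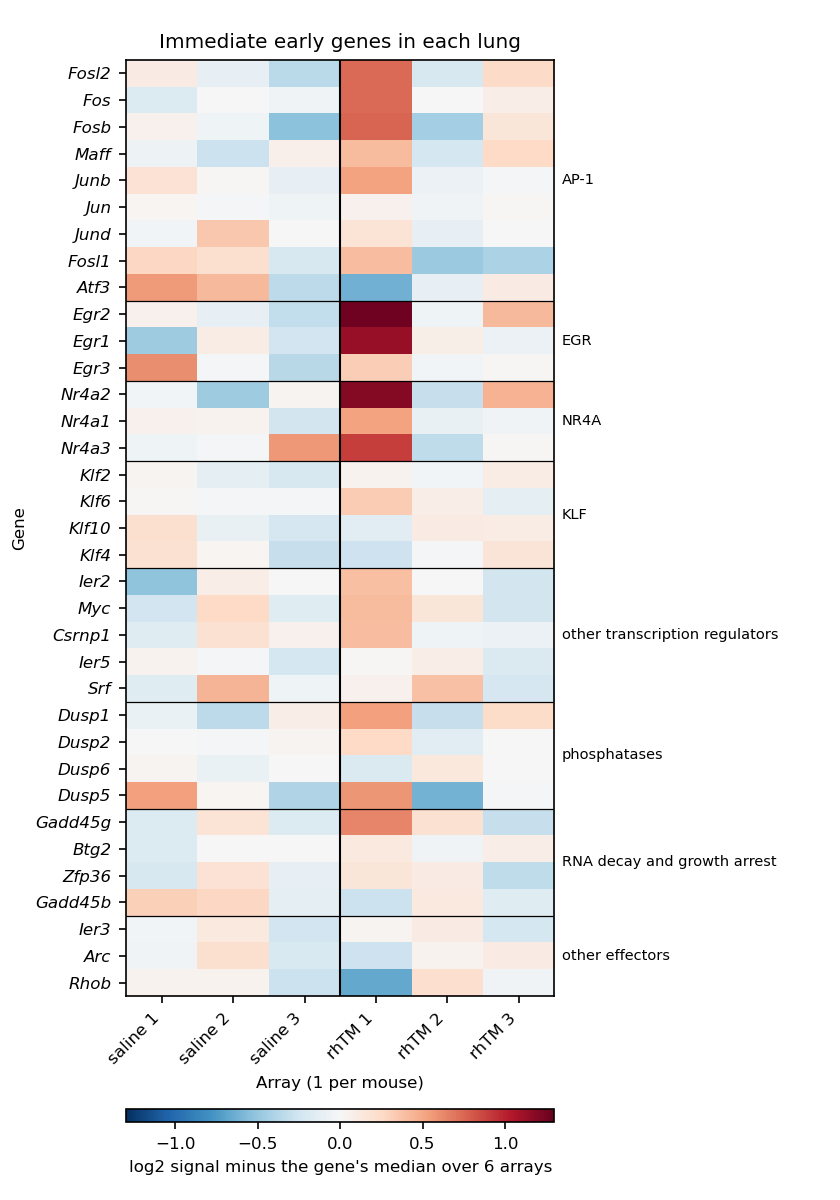
Log2 signal of each of the 35 genes (rows, grouped by role) minus the median of that gene over 6 arrays, for each array (columns). The column of rhTM 1 holds the strongest reds, in Egr2, Egr1 and Nr4a2, and also blue cells in Atf3 and Rhob.

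AP-1 is the dimer that Fos and Jun proteins form, and with its relatives it was the largest group, with 9 genes. In 6 of the 9 the mean log2 signal was higher in rhTM-treated mice, the median log2 fold change was 0.11, and rhTM 1 was the highest array for 7. Values below are the processed signal divided by the 75th percentile of its array, means are given ± SD with n = 3 arrays, and levels of different genes cannot be set against each other because each has its own probe.

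Fos encodes c-Fos, the partner that gives AP-1 its inducibility. Its signal was 4.36, 4.92 and 4.80 in saline 1, 2 and 3, and 8.21, 4.96 and 5.25 in rhTM 1, 2 and 3. Every rhTM-treated mouse lay above every saline-treated mouse, though rhTM 2 did so by a small margin. Group means were 4.69 ± 0.296 and 6.14 ± 1.80, with a log2 fold change of 0.35 (SE 0.21) and an exact two-sided permutation p of 0.1, the smallest that 3 arrays against 3 can give. Fos was the single gene of the 35 with such a separation (2.95% of all genes had it), and the separation was lost with normexp or quantile normalization. It was also lost by the table, where the log2 fold change was 0.23 and the exact permutation p 0.7. Without rhTM 1 it was 0.12.

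Fosb and Fosl2 encode the other members of the Fos family that were highest in rhTM 1 and had a higher group mean. Fosl2 stood at 7.83, 6.80 and 5.70 in the saline-treated mice and at 12.2, 6.32 and 8.66 in the rhTM-treated mice. Only rhTM 2 fell within the saline range. The means were 6.77 ± 1.06 and 9.04 ± 2.94, a log2 fold change of 0.38 (SE 0.25) with an exact permutation p of 0.3, and of 0.14 without rhTM 1. By the table it was 0.58 (SE 0.18), with no overlap and an adjusted p of 0.313. Fosb read 0.249, 0.229 and 0.164 with saline and 0.403, 0.175 and 0.266 with rhTM. The groups overlapped through rhTM 2, and the log2 fold change of 0.34 (SE 0.32, exact permutation p = 0.4) became 0.03 without rhTM 1. By the table it was 0.67 with no overlap and an exact permutation p of 0.1.

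Fosl1 encodes Fra-1, a Fos relative without a strong activation domain. Its signal was 0.343, 0.329 and 0.247 with saline and 0.376, 0.205 and 0.214 with rhTM. rhTM 1 was the highest of the 6 and rhTM 2 and 3 the lowest. The log2 fold change was -0.25 (SE 0.27, exact permutation p = 0.4), -0.54 without rhTM 1, and 0.24 by the table.

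Group differences of the Jun genes were small by the scanner output. Jun, the main dimer partner of Fos, was the steadiest of the 35 genes, with 24.3, 23.5 and 22.9 in the saline-treated mice and 24.7, 23.1 and 24.1 in the rhTM-treated mice. From the lowest to the highest lung it spanned 1.08-fold, and the log2 fold change was 0.02 (SE 0.11, exact permutation p = 0.6). By the table Jun had no overlap, at 0.07. Junb, which often restrains Jun, read 51.1, 45.3 and 41.7 against 64.5, 42.7 and 44.4. Again rhTM 1 alone exceeded the saline range, and the log2 fold change of 0.11 (SE 0.19, exact permutation p = 0.7) was -0.08 without it and 0.29 by the table. A dimmer probe of Junb gave -0.23, with saline 2 highest, so the direction of Junb rests on the probe. The same held for Jund, the constitutive member, at -0.08 by the brighter and 0.09 by the dimmer probe. By the brighter probe Jund lay between 42.1 and 55.0 with saline and between 39.9 and 48.8 with rhTM.

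Atf3, a stress-induced factor that limits inflammatory transcription, had the lowest log2 fold change of all 35 genes. Its signal was 2.73, 2.50 and 1.47 with saline and 1.22, 1.73 and 2.01 with rhTM. The groups overlapped through saline 3, and rhTM 1 was the lowest array, the opposite of most of the list. Means of 2.24 ± 0.672 and 1.65 ± 0.405 gave a log2 fold change of -0.42 (SE 0.29, exact permutation p = 0.3), -0.21 without rhTM 1 and 0.02 by the table. Maff, a small Maf protein without an activation domain, lay between 5.87 and 7.49 with saline and between 6.08 and 9.48 with rhTM, highest in rhTM 1.

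EGR genes encode zinc finger factors induced through serum response factor, and they held 2 of the 3 largest differences, those of Egr2 and Egr1. On the log2 scale all 3 tested had the higher mean with rhTM, with a median log2 fold change of 0.58, though for Egr3 the mean of the signal itself was 0.185 with saline and 0.183 with rhTM. Egr2, whose promoter with its CArG box is printed above, had 1.72, 1.53 and 1.32 with saline and 3.96, 1.58 and 2.21 with rhTM. rhTM 1 and 3 lay above all saline-treated mice and rhTM 2 within them. The means were 1.52 ± 0.200 and 2.59 ± 1.23, with a log2 fold change of 0.67 (SE 0.33) and an exact permutation p of 0.2. Without rhTM 1 it was 0.30, and without both arrays of doubtful assignment, saline 1 and rhTM 2, it was 1.06. By the table Egr2 had no overlap, with a log2 fold change of 0.74 (SE 0.30) and a limma adjusted p of 0.351.

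Egr1, the most widely induced member of the family, exceeded the saline range in rhTM 1 alone. It read 2.89, 4.24 and 3.34 in the saline-treated mice and 8.71, 4.19 and 3.76 in the rhTM-treated mice. rhTM 2 and 3 lay inside the saline range, and rhTM 1 was 2.32-fold above the median of the other 5. The log2 fold change was 0.58 (SE 0.33, exact permutation p = 0.3) on means of 3.49 ± 0.689 and 5.56 ± 2.74, and 0.20 without rhTM 1. By the table it was 0.22 (SE 0.40, exact permutation p = 0.9). Egr3, a further target of the same pathway, read 0.257, 0.167 and 0.132 against 0.212, 0.166 and 0.171. Here saline 1 was highest, the rhTM-treated mice all lay within the saline range, and the log2 fold change was 0.03 (SE 0.25, exact permutation p = 0.9). With the columns of the table, which exchange saline 1, Egr3 had no overlap at 0.45.

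NR4A genes encode orphan nuclear receptors that act without a bound hormone, and rhTM 1 was the highest array for all 3. Nr4a2 had the widest span of the 35 genes, 3.15-fold from saline 2 to rhTM 1. It read 0.589, 0.439 and 0.619 with saline and 1.38, 0.492 and 0.828 with rhTM. rhTM 1 and 3 were above and rhTM 2 inside the saline range, and the means were 0.549 ± 0.0965 and 0.902 ± 0.451. The log2 fold change was 0.61 (SE 0.37, exact permutation p = 0.3), 0.23 without rhTM 1 and 0.78 by the table, and a dimmer probe gave 0.58. Nr4a1, also known as Nur77, read 28.5, 28.3 and 23.2 against 39.6, 25.7 and 26.7. Outside rhTM 1 its rhTM values lay within the saline range, and the log2 fold change of 0.18 (SE 0.20, exact permutation p = 0.6) was -0.02 without that mouse and 0.28 by the table. Nr4a3 lay between 0.249 and 0.385 with saline and between 0.206 and 0.484 with rhTM.

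**Figure D3:**
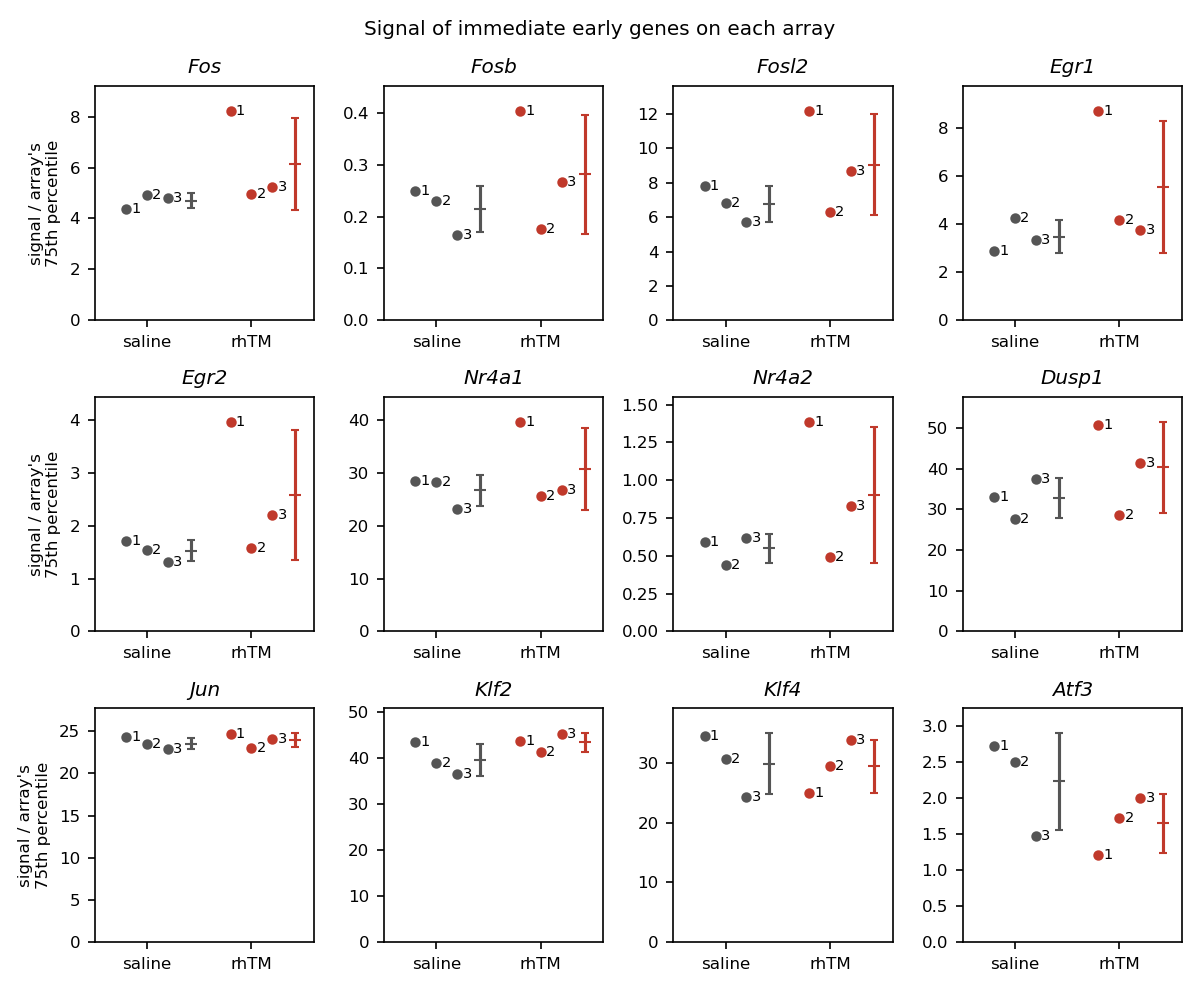
Processed signal divided by the 75th percentile of its array (y axis) for 12 immediate early genes in each saline-treated and rhTM-treated mouse (numbered points), with the mean and SD of each group beside them. rhTM 1 stands above the other mice in the first 8 panels, from Fos to Dusp1, while Jun and Klf2 vary little and Atf3 is lowest in rhTM 1.

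Of the 4 KLF genes, rhTM 1 was the highest array for 1. Klf2, which endothelial cells express under laminar shear stress and which raises thrombomodulin in them, read 43.5, 38.9 and 36.6 with saline and 43.7, 41.4 and 45.4 with rhTM. Saline 2 and 3 lay below the rhTM range and saline 1 within it. The means were 39.7 ± 3.51 and 43.5 ± 2.01, with a log2 fold change of 0.13 (SE 0.12, exact permutation p = 0.2) that was the same without rhTM 1, 0.13. By the table, which moves saline 1, the groups did not overlap, at 0.18 with an exact permutation p of 0.1. Klf4, a related endothelial and epithelial factor, read 34.4, 30.7 and 24.3 against 24.9, 29.4 and 33.8. Both groups covered nearly the same range, at a log2 fold change of -0.02 (SE 0.18, exact permutation p = 0.9), and 0.13 by the table. Klf6, a wound response factor, lay between 34.3 and 35.4 with saline and 32.0 and 43.8 with rhTM. Klf10, induced by TGF-β, lay between 4.50 and 6.05 and between 4.78 and 5.67.

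Among the other regulators of transcription, 4 of 5 had a higher mean with rhTM, with a median log2 fold change of 0.06. Myc, which drives growth genes, read 0.856, 1.22 and 0.916 with saline and 1.36, 1.14 and 0.867 with rhTM. The groups overlapped, and the log2 fold change of 0.16 (SE 0.21, exact permutation p = 0.6) was 0.01 without rhTM 1 and -0.11 by the table. Srf, the serum response factor itself and the owner of a promoter with paired CArG boxes, spanned 3.28 to 4.96 with saline and 3.14 to 4.75 with rhTM. Ier2 lay between 2.61 and 3.97 and between 3.18 and 4.94, Ier5 between 13.9 and 16.8 and between 14.3 and 17.3, and Csrnp1 between 9.76 and 12.5 and between 10.3 and 14.4.

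Dual-specificity phosphatases switch off the MAP kinases that induce these genes, and the 4 tested had a median log2 fold change of 0.01. Dusp1, which acts on p38 and JNK and whose promoter carries the cAMP response element shown above, read 33.0, 27.7 and 37.4 with saline and 50.9, 28.7 and 41.4 with rhTM. rhTM 1 and 3 lay above the saline range and rhTM 2 near its lower end. Means of 32.7 ± 4.88 and 40.3 ± 11.1 gave a log2 fold change of 0.27 (SE 0.23, exact permutation p = 0.4), 0.09 without rhTM 1 and 0.41 by the table. Dusp2, found mostly in immune cells, lay between 7.39 and 7.72 with saline, the narrowest saline range of the group as a fold, and between 6.80 and 8.99 with rhTM. Dusp6, the ERK phosphatase of the cytoplasm, spanned 15.8 to 17.1 and 14.7 to 18.4. Dusp5, its nuclear counterpart, was dim, at 0.032 to 0.061 with saline and 0.028 to 0.063 with rhTM.

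Products that act on RNA decay and growth arrest were 4. Zfp36 encodes tristetraprolin, which destabilises cytokine mRNAs, and it read 9.11, 12.0 and 9.81 with saline and 11.8, 11.3 and 8.38 with rhTM. The ranges overlapped almost fully, at a log2 fold change of 0.02 (SE 0.18, exact permutation p = 1), and -0.19 by the table. Gadd45b, a stress sensor upstream of p38 and JNK, read 9.51, 9.28 and 7.03 against 6.32, 8.38 and 6.86. Saline 1 and 2 were the highest lungs, and rhTM 1 and 3 the lowest. The means were 8.61 ± 1.37 and 7.19 ± 1.06, with a log2 fold change of -0.26 (SE 0.18, exact permutation p = 0.2), -0.17 without rhTM 1 and -0.13 by the table. Gadd45g, its relative, went the other way in rhTM 1, at 19.1 to 24.6 with saline and 17.6 to 33.6 with rhTM, and Btg2, an antiproliferative factor, lay between 5.39 and 6.11 and between 5.89 and 6.65.

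Of the other effectors none was highest in rhTM 1. Ier3, which protects cells from apoptosis in many settings, read 9.60, 10.8 and 8.32 with saline and 10.1, 10.6 and 8.44 with rhTM. All rhTM-treated mice lay within the saline range, at a log2 fold change of 0.02 (SE 0.15, exact permutation p = 0.9), and -0.07 by the table. Rhob, a GTPase of endosomes and of the endothelial barrier, was lowest in rhTM 1 at 6.17 and lay between 8.09 and 11.4 elsewhere. Arc, best known from synapses, spanned 0.178 to 0.237 and 0.170 to 0.220. The 16 genes of the list given here by ranges had log2 fold changes from -0.10 for Rhob to 0.24 for Gadd45g, with no unadjusted limma p below 0.269, by the scanner output.

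Values by the authors' table changed which genes stood out. With its columns, 23 of 35 genes were higher in rhTM-treated mice, against 46.0% of all genes, and the median log2 fold change was 0.12. The direction differed from the scanner assignment for 10 of the 35. At an unadjusted limma p under 0.05 there were 6 genes, against 14% of all 16312 genes, and 0 at the adjusted threshold, against 0%. Groups did not overlap for 6 genes, all higher with rhTM, against 9.68% of all genes. They were Fosb, Fosl2, Jun, Egr2, Egr3 and Klf2. Fos was not among them. Of the genes given above by ranges, Dusp5 stood at 0.69 and Srf at -0.36 by the table, with unadjusted limma p of 0.021 and 0.066 and adjusted p of 0.317 and 0.378. With the slide as a block in that table, Egr2 (log2 fold change 1.43, adjusted p 0.039) and Fosl2 (0.96, adjusted p 0.0434) passed the limma threshold, 2 of 35 against 2.65% of all genes. By the table slide 2 holds no saline-treated mouse, so that fit sets rhTM 1 alone against the saline arrays.

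Slides were compared by the scanner output too. The slide itself, as a term in the limma fit, passed the adjusted threshold for 0 of 35 genes, against 1.42% of all genes. Within slide 1, with 2 arrays a group, 28 of 35 genes were higher with rhTM, against 50.2% of all genes, and the median was 0.16. Within slide 2, saline 1 against rhTM 3, it was 16 of 35, against 49.3% of all genes, and the median was -0.02.

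Related lists were read in the same fit, and 0 genes of any of them passed the adjusted limma threshold in either direction. Of 61 other primary response genes, which share the rapid induction, 49 had a higher mean in rhTM-treated mice (median 0.12 on the log2 scale), and rhTM 1 was highest for 32 (52.5%). Without rhTM 1 it was 38 of 61 and 0.06. Areg, an epidermal growth factor receptor ligand, led that list at 1.07 (SE 0.58), and 0.48 without rhTM 1. Of the 33 upstream MAP kinases, ternary complex and CREB factors, 17 were higher, with a median of 0.0038, and Crem led at 0.37 (SE 0.19). Of 18 tested AP-1 targets 11 were higher, with a median of 0.13, led by the neutrophil chemokine gene Cxcl2 at 0.81 (SE 0.40), or 0.32 without rhTM 1. Without that mouse it was 8 of 18 of these targets and a median of -0.04. Of the cytoskeletal targets of serum response factor 3 of 15 were higher, with a median of -0.07. For these, rhTM 1 was the highest array for 0 and the lowest for 9. The count of higher targets was 9 of 15 without rhTM 1 and 9 of 15 by the table. Their leading gene Cnn1, which encodes a smooth muscle calponin, stood at 0.61 (SE 0.47). Among heat shock genes, a sign of cell stress, 7 of 11 were higher and the median was 0.08, led by Hsph1 at 0.25 (SE 0.14).

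**Figure D4:**
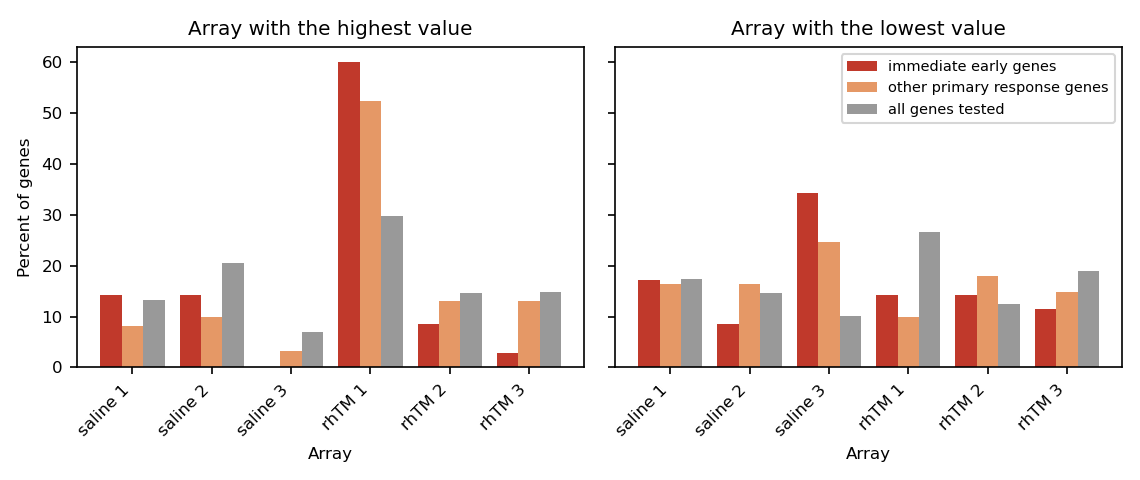
Percent of genes (y axis) for which each array (x axis) had the highest value (left) or the lowest (right), for the 35 immediate early genes, the 61 other primary response genes and all 16361 genes tested. rhTM 1 was highest for 60% of immediate early genes against 29.8% of all genes, and saline 3 lowest for 34.3% against 10.1%.

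Markers of some cell types stood apart in rhTM 1 as well. Over all genes rhTM 1 was the highest array for 29.8% and the lowest for 26.6%. Of 8 AT2 cell markers rhTM 1 was the lowest array for 6, and their summed level was 981 to 1462 in the saline group and 895.5, in rhTM 1, to 1287 in the rhTM group. Of 12 macrophage and monocyte markers it was lowest for 8, with sums of 676 to 686 and 638 to 704, of which rhTM 3 had the lowest and rhTM 1 stood at 654. Of 11 neutrophil markers it was highest for 6 and lowest for 0, with sums of 967 to 1126 and 983 to 1253. Of 8 erythroid and platelet markers it was highest for 6, with sums of 525 to 676 and 499.6 to 677. The upper ends of these sums were those of saline 1 and rhTM 1, which hardly differed. Ly6g, a defining neutrophil marker, did not pass the detection filter and was not tested. Of 12 endothelial markers it was highest for 4 and lowest for 5. The part of these markers in the immediate early gene values of rhTM 1 was not tested.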

How the data were processed

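Each of 6 mice, 3 given saline and 3 given rhTM, had lung RNA on its own Agilent SurePrint G3 Mouse array, read in 1 colour. Scanner files that the authors deposited give for every spot a linear intensity after background correction within the array (Feature Extraction 10.7.3.1 per the file headers, 9.1 per the submitters' processing notes). A table of the same intensity values, unscaled between arrays, was also deposited. Samples were grouped by their labels. Control spots and the 398 of 56605 probes with outlier-flagged spots only on some array were left out, spots of a probe were averaged, and the log2 signal was reduced by the 75th percentile of its array. Accessions were matched to RefSeq genes of GRCm38.p6 (32803 probes, 22815 genes). Coordinates are given only for RefSeq promoter windows on that assembly and not for probes, whose design refers to a different build. The brightest probe stood for a gene, and a gene was tested when detected well above background in the 3 mice of either group. The 75th percentile lay between 673 and 838, and 36242 to 40643 probes per array were well above background.

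Groups were compared over all genes with limma 3.58.1 (lmFit, eBayes) in R 4.3.3, with Benjamini-Hochberg adjustment and a threshold of 0.05. For single genes, the difference in means was set against all regroupings of the 6 arrays (exact permutation test, two-sided). The labels number each sample as a mouse of its own, and the number of arrays limits the precision. The fit was tested on simulated data. The genes, lists and tests were chosen with earlier results of these data known. Values in every mouse are given for the leading genes of each role, those without overlap by either assignment, and the 3 largest differences in each direction. From each related list the gene with the largest difference is named, and cell type markers are given by list only. Alternatives were normexp with an offset of 50 on median spot signals, quantile normalization, another percentile, the authors' table, other filters, slide and replicate blocks, the mean of probes, each array left out, both exchanged arrays left out and the methods' t-test. Its use on the table was added after the data were seen.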

Additional observations from a re-analysis of the deposited data

How the results depend on the processing

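Of 24 genes described singly, none passed the adjusted limma threshold by the scanner output in any setting tried, and 0 of the 35 immediate early genes did. When the authors' table was fitted with a slide term, 432 genes passed, 2 of them immediate early genes, and the median log2 fold change of the 35 was 0.33. Beside Egr2 and Fosl2, Cxcl2 of the related lists also passed there, at 1.77. Leaving out 1 array at a time, from either the scanner output or the table, gave 0 to 566 genes, the highest by the table without rhTM 1, where 0 immediate early genes passed. That setting sets the slide 2 arrays against the slide 1 arrays, so group and slide cannot be told apart in it. The methods' t-test called 1 gene from scanner values and 14 from table values at its fold and P thresholds, with 0 immediate early genes among them and 0 genes after Benjamini-Hochberg adjustment in either case.

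The count of immediate early genes without overlap in either direction was 1 of 35 (2.86%) by the scanner output, against 5.52% of all genes. It was 0 with normexp (all genes 5.59%) and with quantile normalization (5.23%), 6 (17.1%) by the table with or without the slide block or the t-test (21.7%), 6 (17.1%) on slide 1 only (26.5%) and 12 (34.3%) without saline 1 and rhTM 2 (41.2%). With 1 array left out it was 2 to 13. The count of 2 (5.71%) came without saline 2 (all genes 8.85%) and without rhTM 1 (10.8%), and the count of 13 (37.1%) by the table without saline 3 (33.6%) and without rhTM 1 (45.9%). Fewer arrays overlap less by construction. On slide 2 only, 16 of 35 genes were higher with rhTM.

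Signs turned for some genes, Atf3 and Fosl1 among them. With the table, by limma or the t-test, the log2 fold change was 0.023 for Atf3, 0.24 for Fosl1 (0.56 with the slide block), -0.072 for Ier3, 0.13 for Klf4, -0.11 for Myc and -0.19 for Zfp36. Jun was -0.00036 with normexp. Quantile normalization gave -0.021 for Ier3, -0.025 for Jun and -0.020 for Zfp36, and a 75th percentile taken from detected probes alone gave -0.00012 for Ier3 and -0.0027 for Zfp36. The mean of probes gave -0.059 for Junb. Without saline 1 and rhTM 2, it was -0.036 for Ier3, 0.087 for Klf4 and -0.13 for Zfp36. Slide 2 only gave -0.59 for Egr3, -0.19 for Ier3, -0.012 for Jun, -0.20 for Junb, -0.093 for Nr4a1 and -0.12 for Zfp36. The cause was not tested for any of these.

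With 1 array left out, from either source, the log2 fold change ran from -0.69 to 0.34 for Atf3, -0.24 to 0.81 for Egr1, -0.19 to 0.60 for Egr3, -0.032 to 0.49 for Fos, -0.54 to 0.49 for Fosl1, -0.19 to 0.12 for Ier3, -0.075 to 0.41 for Junb, -0.16 to 0.28 for Klf4, -0.33 to 0.33 for Myc, -0.020 to 0.39 for Nr4a1, -0.33 to 0.18 for Zfp36 and -0.027 to 0.34 for Hsph1. The values of Egr1 and Fos turned negative by the table without rhTM 1, where group and slide coincide. Their slide terms by the scanner output were -0.53 and -0.22 (slide 2 minus slide 1), with limma adjusted p of 0.456 and 0.659. The cause of the turn was not tested.

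Deviations of mice with the same number correlated at -0.30, 0.44 and -0.45 for numbers 1, 2 and 3, thus not positively for every number, and the numbers were not taken to pair the mice. With the replicate block 0 genes passed the adjusted threshold, and the median log2 fold change of the immediate early genes stayed 0.06. At an unadjusted limma p under 0.05 there was 1 of the 35 genes, against 376 of all 16361. No filter, the filter for all 6 arrays and the slide block on the scanner output turned no sign.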
